A study of Mus musculus with 8 samples.

Results

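The transcripts described here encode proteins that build and work the mitotic machinery: the kinetochore and its checkpoint, centromeric chromatin, the chromosomal passenger complex, mitotic kinesins, spindle proteins, cytokinesis regulators, condensin and a few further mitotic genes. The list holds 52 genes of 18193 represented by a single symbol on the array, each read from whichever of its probe sets averaged highest across the 8 arrays, and 48 of the 52 were among the 12735 genes left after the lowest 30% by mean level were set aside. Expression was measured in whole dorsal skin of female mice of the hairless strain Hos:HR-1, which is known to lose its coat and to carry abnormal hair follicles. All mice ate the purified diet AIN-93G from 9 to 21 weeks of age, for 12 weeks, and in the collagen group 2 g of fish-scale collagen hydrolysate (peptides from digested collagen) was mixed into every 100 g of it. Each diet had 8 mice in the study and 4 arrays here, given in the labels as biological replicates. The mice were housed 4 to a cage, and the labels do not tie arrays to cages, so cage and diet cannot be told apart. The basal keratins Krt5 and Krt14 and the suprabasal Krt1 and Krt10 stood at 13.06, 13.89, 13.09 and 14.07 on the deposited log2 scale, which ran from 5.34 to 14.27.

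When a cell divides, condensin and topoisomerase II compact the chromosomes, kinetochores assemble on the centromeres, kinesins and microtubule-binding proteins shape the spindle, and a checkpoint holds the cell until every kinetochore is attached. Securin and cyclin are then destroyed, separase releases the sister chromatids and a contractile ring divides the cell. In skin these genes are transcribed mainly in dividing cells of the basal epidermis, the hair follicle and the sebaceous gland. In whole skin, fewer dividing cells and less of these RNAs per cell cannot be told apart.

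The deposited values differ little between arrays, with a median SD of 8.66e-06 log2 over the 8 arrays for a probe set, and the method of summarization is unknown here. Each difference (collagen diet less control diet) is therefore divided by the SD within the diets, pooled for that gene, and an array's value is given as its deviation from the gene's mean over the 8 arrays in the same unit. With 4 arrays per diet, a difference in this unit has an SE of 0.707 SD for every gene. Such a difference is no fold change of RNA. The medians of the arrays ranged over 0.000369 log2, from 6.853172 (control replicate 4) to 6.853542 (collagen replicate 3). This compares with a median within-group SD of 2.81e-05 for the members. Rescaling the arrays can therefore alter these comparisons, as the values given beside the results show. A difference after rescaling is divided by the within-group SD of the rescaled values, so its unit is not that of the deposited values. The members' median within-group SD was 0.000371 log2 after quantile normalization and 0.000158 log2 after median centring. A smaller difference in SD is thus not by itself a smaller difference in log2.

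Mitotic genes had lower values on the collagen diet nearly throughout the list, but no single gene passed the test. Of the 48 members tested, 46 had a lower mean on the collagen diet, against 54.5% of all genes tested. The median difference was -1.57 SD for the members and -0.08 SD for all genes, and the members' median was -0.29 SD when quantile-normalized and -0.41 SD when median-centred, where 38 and 47 of the 48 were lower, against 64.9% and 86.5% of all genes. At an unadjusted p below 0.05 in limma stood 23 members, or 47.9%, all lower, against 4.15% of all genes that were lower at this p. The diets did not overlap in 8 members (16.7%), with all 4 collagen arrays below all 4 control arrays, against 2.53% of all genes. After Benjamini-Hochberg adjustment over all 12735 genes, 0 of the 48 members and 0 genes in all (0.0% called) were below 0.05, and the members' adjusted p lay between 0.636 and 0.999. After quantile normalization 1 member stayed below an unadjusted p of 0.05 (0.455% of all genes were lower at this p), and after median centring 2 did (0.448%). Leaving out control replicate 1, 2 or 3 gave 13, 14 or 15 members (against 4.31%, 3.58% or 3.82% of all genes), and leaving out collagen replicate 2 or 3 gave 15 or 14 (2.98% or 3.37%).

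**Figure D1:**
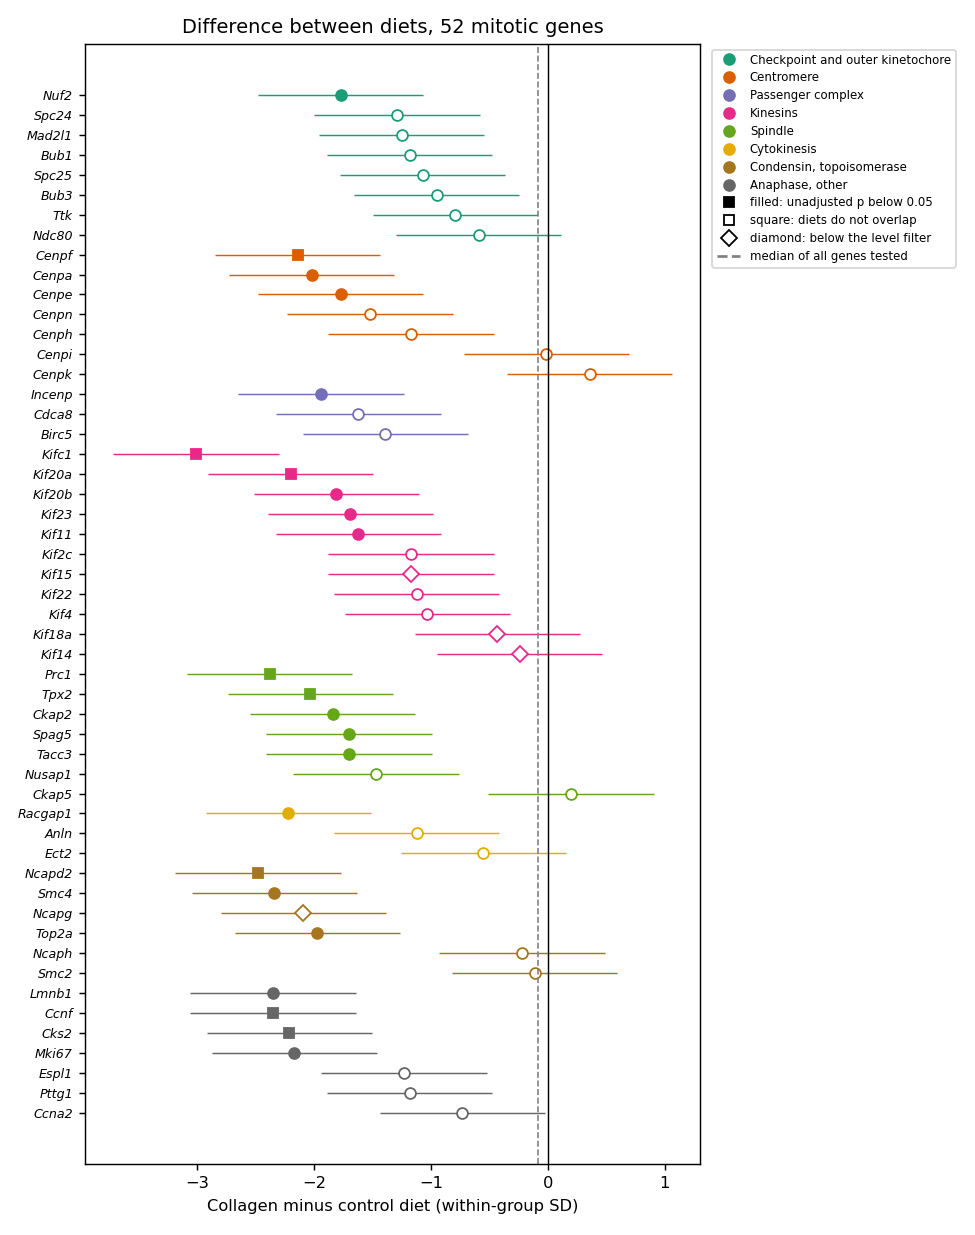
Difference between the diets for each of the 52 genes, as deposited, in within-group SD on the horizontal axis; points are differences, whiskers the SE (n = 4 per diet), colours the roles. Filled points (23) have an unadjusted p below 0.05 in limma, squares (8) have diets that do not overlap and diamonds (4) fell below the level filter; 46 of the 48 tested points lie left of 0, against 38 after quantile normalization and 47 after median centring.

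Control replicates 1, 2 and 3 carried the high values and collagen replicate 3 the low ones. The mean deviation of the 48 members was 1.13, 1.05, 0.767 and -0.036 SD in control replicates 1 to 4, and -0.349, -0.462, -1.498 and -0.603 SD in collagen replicates 1 to 4. Collagen replicate 3 was the lowest of the 8 arrays in 34 members. Control replicate 1 was the highest in 17 and control replicate 2 in 15. Control replicate 4 stood close to the collagen arrays: it lay below the gene's mean in 28 of 48 members, against 6, 9 and 10 members in control replicates 1, 2 and 3. Control replicate 4 and collagen replicate 1 were also low in skeletal muscle markers (-1.38 and -1.36 SD over 14 genes, against 0.206 to 0.882 SD in the other arrays). Without these 2 arrays 23 members stood below an unadjusted p of 0.05 in limma (3.6% of all genes), 17 of them among the 23 found with all arrays and 6 others, and the members' median was -1.98 SD. With 3 arrays per diet left, the diets did not overlap in 27 of the 48 members, against 6.73% of all genes. These 2 arrays were chosen after the data were seen. Control replicate 4 was the control array nearest to the collagen arrays in the members, so leaving it out makes non-overlap likelier. Without control replicate 4 alone the diets did not overlap in 24 members (share of all genes not computed).

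**Figure D2:**
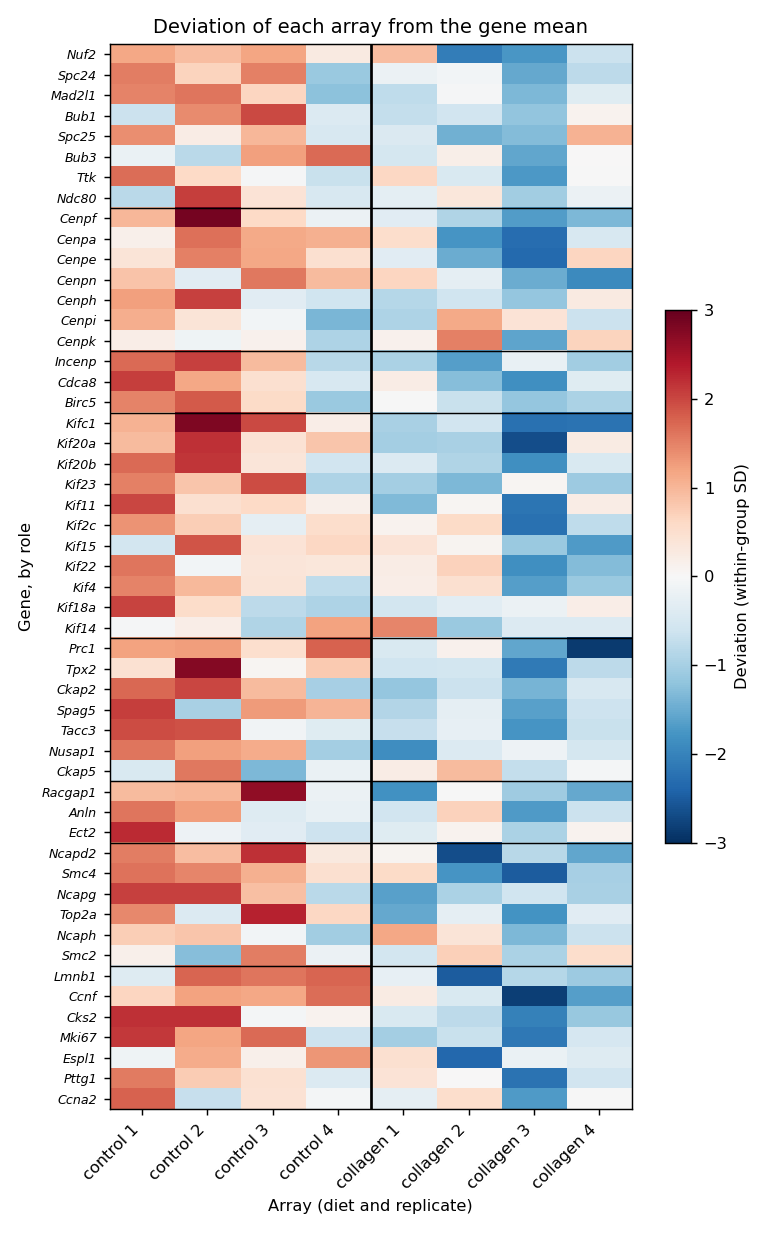
Deviation of each array (columns, diet and replicate) from the gene's mean over the 8 arrays for the 52 genes (rows, grouped by role), as deposited, in within-group SD from -3 (blue) to 3 (red). Collagen replicate 3 is the lowest array in 34 of the 48 genes tested. Control replicate 4 lies below the gene's mean in 28 of the 48 and is the highest array in 5.

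Many of the members hold promoter motifs that the choice of genes did not use. Such motifs are already known for genes of this class, so their frequency here gives no information on the diets. Genes of late cell cycle are known to be repressed through the cell cycle homology region, whose core is TTTGAA, when it is bound by the DREAM complex. They are also known to be driven through CCAAT boxes, bound by NF-Y. In the RefSeq promoter table (GRCm38.p6, 250 bases before to 50 bases after each start site, 300 bases in all) 45 of the 52 members have 50 promoters, some of which overlap within a gene. TTTGAA, searched on both strands, occurred in 34 of these 50 promoters (68.0%), against 17.9% of all 32851 promoters and 12.0% of those of genes tested. CCAAT, also on both strands, occurred in 37 (74.0%), against 37.4% and 36.7%, and matches of the motifs were counted apart even where they overlapped. Both motifs occurred in 29 promoters (58.0%), against 6.95% and 4.64%. A match is a description of letters, not a bound site. The 5 promoters printed below are those of Kifc1, Ncapd2 and Ccnf, chosen from the 8 members with diets that do not overlap, and of the common proliferation markers Top2a and Mki67. They read 5′ to 3′ along the gene, with TTTGAA and CCAAT on either strand in capitals.
Kifc1 (chr17:33890584-33890883, minus strand): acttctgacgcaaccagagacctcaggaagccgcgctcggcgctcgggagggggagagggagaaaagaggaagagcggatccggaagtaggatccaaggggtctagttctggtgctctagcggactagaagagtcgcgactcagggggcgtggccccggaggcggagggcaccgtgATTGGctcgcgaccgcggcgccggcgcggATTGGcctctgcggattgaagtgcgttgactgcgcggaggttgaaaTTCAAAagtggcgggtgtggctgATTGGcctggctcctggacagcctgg
Ncapd2 (chr6:125191537-125191836, minus strand): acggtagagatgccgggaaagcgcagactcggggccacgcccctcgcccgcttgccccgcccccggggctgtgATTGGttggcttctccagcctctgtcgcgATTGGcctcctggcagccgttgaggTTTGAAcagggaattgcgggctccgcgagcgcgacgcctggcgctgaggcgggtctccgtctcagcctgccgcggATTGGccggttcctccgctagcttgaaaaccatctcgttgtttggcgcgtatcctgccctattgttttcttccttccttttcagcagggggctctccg
Ccnf (chr17:24251360-24251659, minus strand): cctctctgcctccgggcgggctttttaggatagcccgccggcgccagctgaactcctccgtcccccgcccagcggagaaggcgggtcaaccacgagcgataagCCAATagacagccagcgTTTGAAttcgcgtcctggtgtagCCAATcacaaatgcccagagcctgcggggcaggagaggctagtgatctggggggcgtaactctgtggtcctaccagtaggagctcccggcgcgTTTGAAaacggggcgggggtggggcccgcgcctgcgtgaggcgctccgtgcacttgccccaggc
Top2a (chr11:99024140-99024439, minus strand): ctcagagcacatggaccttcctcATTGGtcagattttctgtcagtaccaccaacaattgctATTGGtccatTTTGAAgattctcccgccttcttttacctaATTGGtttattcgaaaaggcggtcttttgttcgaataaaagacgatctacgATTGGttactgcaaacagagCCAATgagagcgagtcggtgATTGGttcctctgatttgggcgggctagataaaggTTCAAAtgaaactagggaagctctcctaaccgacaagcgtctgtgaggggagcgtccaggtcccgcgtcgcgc
Mki67 (chr7:135716330-135716629, minus strand): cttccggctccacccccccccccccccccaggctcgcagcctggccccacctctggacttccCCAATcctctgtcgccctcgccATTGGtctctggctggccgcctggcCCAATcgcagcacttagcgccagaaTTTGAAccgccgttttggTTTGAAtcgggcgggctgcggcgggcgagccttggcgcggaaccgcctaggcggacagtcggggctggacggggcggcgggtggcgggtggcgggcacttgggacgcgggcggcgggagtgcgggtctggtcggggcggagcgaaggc

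All 5 printed promoters hold both motifs, but not every member with diets that do not overlap does. Of those not printed, Cenpf and Prc1 hold both, and Cks2 holds 4 CCAAT motifs and no TTTGAA. Kif20a and Tpx2 are not among the members with a promoter here. Kifc1 has CCAAT motifs (as ATTGG) that begin 74 and 45 bases upstream and 24 bases downstream of the start site, and TTTGAA (as TTCAAA) 1 base downstream. Ncapd2 has TTTGAA 123 bases upstream and CCAAT motifs 177, 148 and 48 bases upstream. Ccnf has TTTGAA 130 and 14 bases upstream and CCAAT 147 and 107 bases upstream. Top2a holds 6 CCAAT motifs, between 227 and 58 bases upstream, and TTTGAA 179 and 23 bases upstream. In Mki67, TTTGAA begins 116 and 98 bases upstream, after CCAAT motifs that begin 188, 166 and 141 bases upstream. Over the members, TTTGAA was most frequent in the first 50 bases after the start, at 36.0 matches per 100 promoters against 2.30 over all promoters. CCAAT was most frequent in the last 50 bases before the start, at 46.0 per 100 against 9.72. As deposited, the 28 tested members with TTTGAA had a median difference between the diets of -1.62 SD, and the 13 without it one of -1.25 SD. The medians were the same for CCAAT, at -1.62 SD in the 30 tested members with it and -1.25 SD in the 11 without. These differences between medians were not tested.

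**Figure D3:**
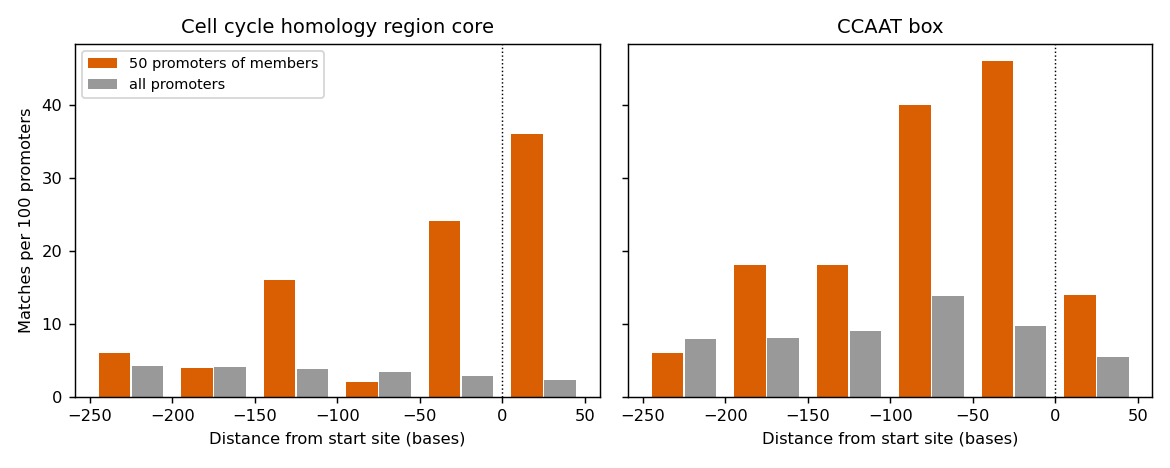
Matches per 100 promoters (vertical axis) by distance of the motif's first base from the start site in bins of 50 bases (horizontal axis), for the core of the cell cycle homology region (left) and the CCAAT box (right), in 50 promoters of the members (orange) and in all 32851 promoters (grey). The members' highest bars are 36.0 matches just after the start on the left and 46.0 just before it on the right.

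Mitotic kinesins, motor proteins that walk along or take apart microtubules, were lower in all 8 members tested, with a median of -1.65 SD as deposited, -0.41 SD when quantile-normalized (7 of 8 lower) and -0.43 SD when median-centred (8 of 8). At an unadjusted p below 0.05 in limma stood 5 of the 8, all lower, against 4.15% of all genes, and 86.5% of all genes were lower when median-centred. Kifc1 (1449877_s_at), a minus-end motor that bundles spindle microtubules, read 7.496079, 7.496103, 7.496092 and 7.496068 log2 in control replicates 1 to 4 and 7.496052, 7.496057, 7.496034 and 7.496035 in collagen replicates 1 to 4. Every collagen array lay below every control array, though the whole span is under the range of the array medians. The difference was -4.09e-05 ± 9.63e-06 (SE, n = 4 per diet) log2, or -3.01 SD, with an adjusted p of 0.636 in limma, and its sign turned after quantile normalization (0.54 SD). Kif20a (1449207_a_at), which carries Polo-like kinase to the central spindle, deviated by 0.95, 2.19, 0.44 and 0.83 SD in control replicates 1 to 4 and -1.03, -0.97, -2.66 and 0.25 SD in collagen replicates 1 to 4. The diets did not overlap here either, with collagen replicate 4 next to the control arrays and collagen replicate 3 far below. Its difference was -2.20 SD (adjusted p = 0.813 in limma). Kif20b (-1.81 SD), Kif23 (-1.69 SD), the motor of the centralspindlin complex, and Kif11 (-1.62 SD), the motor that separates the spindle poles, stood below an unadjusted p of 0.05 in limma with overlapping diets. Kif2c, which depolymerises microtubules at the kinetochore, Kif22, a chromosome arm motor, and Kif4, which acts on chromosomes and the spindle midzone, differed by -1.17 SD, -1.12 SD and -1.03 SD and did not reach that p. Both further probe sets of Kif22 lay lower, at -2.86 and -5.90 SD with diets that do not overlap, and the mean of all its probe sets differed by -4.51 SD. Kif14, Kif15 and Kif18a fell below the level filter, and without the filter they differed by -0.24 SD, -1.17 SD and -0.43 SD, each with overlapping diets.

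Kinesins of transport and cilia, with their light chains, gave a different picture on the same arrays. Of 25 on the array 22 were tested, and 8 of them were lower and 14 higher (median 0.19 SD as deposited, -0.08 SD with 11 lower when quantile-normalized and -0.14 SD with 19 lower when median-centred). Kif5b, a motor of cargo transport, differed by 0.92 SD, Kif13a by 1.73 SD and the light chain gene Klc3 by -2.32 SD. Kif13a (higher) and Klc3 (lower) were the only ones below an unadjusted p of 0.05 in limma. The difference between the transport and mitotic kinesins was not tested.

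Spindle proteins were lower in 6 of 7 members, at a median of -1.70 SD as deposited, -0.22 SD when quantile-normalized (4 of 7 lower) and -0.45 SD when median-centred (7 of 7, against 86.5% of all genes). Of the 7, 5 stood below an unadjusted p of 0.05 in limma, all lower, against 4.15% of all genes. Prc1 (1423775_s_at), which crosslinks antiparallel microtubules of the central spindle, deviated by 1.21, 1.25, 0.51 and 1.78 SD in control replicates 1 to 4 and -0.45, 0.12, -1.57 and -2.86 SD in collagen replicates 1 to 4. Its diets did not overlap, and collagen replicate 4 was the lowest array. The difference was -4.21e-05 ± 1.25e-05 (SE, n = 4 per diet) log2, or -2.38 SD (adjusted p = 0.777 in limma), and -0.22 SD after quantile normalization. The further probe set of Prc1 differed by -1.09 SD with overlapping diets (unadjusted p = 0.156 in limma). Tpx2 (1428104_at), an activator of Aurora A and of microtubule nucleation, deviated by 0.45, 2.76, 0.06 and 0.78 SD in control replicates 1 to 4 and -0.60, -0.55, -2.12 and -0.78 SD in collagen replicates 1 to 4. All collagen arrays lay below all control arrays, with control replicate 2 far above the rest and collagen replicate 3 far below. Its difference of -2.03 SD (adjusted p = 0.861 in limma) was 0.01 SD after quantile normalization, and without collagen replicate 3 it was -1.77 SD. Ckap2, Spag5 and Tacc3, which bind and stabilise spindle microtubules, differed by -1.84 SD, -1.70 SD and -1.70 SD, each below an unadjusted p of 0.05 in limma. Nusap1 differed by -1.47 SD and did not reach that p. Ckap5, a microtubule polymerase that interphase cells use too, was higher by 0.20 SD with overlapping diets. Its further probe sets went the other way, at -0.66 and -1.61 SD. After quantile normalization Spag5 and Nusap1 turned to 0.04 and 0.20 SD, and Ckap5 to -0.60 SD.

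Condensin and topoisomerase genes were lower in 5 of 5 members tested, at a median of -1.97 SD as deposited, -0.33 SD in the quantile-normalized and -0.55 SD in the median-centred values, by the probe sets of highest mean. Ncapd2 (1423847_at), a HEAT-repeat subunit of condensin I, read 7.267930, 7.267660, 7.268219 and 7.267380 log2 in control replicates 1 to 4 and 7.267282, 7.266064, 7.266874 and 7.266560 in collagen replicates 1 to 4. All collagen arrays were below all control arrays, and the gap between control replicate 4 and collagen replicate 1 was small. The difference was -0.0011 ± 0.000314 (SE, n = 4 per diet) log2, or -2.48 SD, with an adjusted p of 0.754 in limma. Its within-group SD of 0.000444 log2 was the highest of the tested members, and it was -1.80 SD when quantile-normalized and -2.32 SD when median-centred, the member that kept an unadjusted p below 0.05 in both (0.0278 and 0.00635 in limma). Smc4 (1452197_at), an ATPase subunit that condensin I and II share, deviated by 1.64, 1.47, 1.07 and 0.48 SD in control replicates 1 to 4 and 0.58, -1.77, -2.49 and -1.0 SD in collagen replicates 1 to 4. Collagen replicate 1 lay within the control arrays and the other collagen arrays below them, with a difference of -2.34 SD (adjusted p = 0.779 in limma). The further probe sets of Smc4 differed less, by -0.89 and -0.68 SD with overlapping diets, and the mean of all its probe sets by -0.88 SD. Smc2, the partner of Smc4, differed by only -0.11 SD, and Ncaph, the kleisin subunit of condensin I, by -0.22 SD, both with overlapping diets. A further probe set of Ncaph differed by -4.03 SD, with diets that do not overlap (unadjusted p = 0.00118 in limma, no adjusted value computed), so the probe sets of this gene disagree in size. Ncapg, a further subunit of condensin I, fell below the level filter and differed by -2.09 SD without it. Top2a (1454694_a_at), which untangles replicated DNA, deviated by 1.44, -0.42, 2.31 and 0.62 SD in control replicates 1 to 4 and -1.54, -0.28, -1.80 and -0.33 SD in collagen replicates 1 to 4. Control replicate 2 lay among the collagen arrays, and the difference was -1.97 SD as deposited (adjusted p = 0.872 in limma), -0.61 SD when quantile-normalized and -0.65 SD when median-centred.

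The checkpoint and outer kinetochore members were all lower (8 of 8), at a median of -1.12 SD as deposited, -0.25 SD when median-centred and -0.08 SD when quantile-normalized, where 5 of 8 were lower. Against 4.15% of all genes, a single member (12.5%) stood lower at an unadjusted p below 0.05 in limma. This was Nuf2 (1430811_a_at), a subunit of the NDC80 complex that grips microtubules, which deviated by 1.15, 0.92, 1.19 and 0.28 SD in control replicates 1 to 4 and 0.92, -2.07, -1.75 and -0.64 SD in collagen replicates 1 to 4. Collagen replicate 1 lay within the control arrays and the other collagen arrays below them, for a difference of -1.77 SD (unadjusted p = 0.0496 and adjusted p = 0.933 in limma). Spc24 (1431087_at), of the same complex, deviated by 1.54, 0.66, 1.5 and -1.12 SD in control replicates 1 to 4 and -0.17, -0.09, -1.53 and -0.79 SD in collagen replicates 1 to 4. Control replicate 4 was lower than 3 of the collagen arrays, and the difference of -1.29 SD did not reach an unadjusted p of 0.05 in limma (0.104). The remaining subunits Spc25 and Ndc80 differed by -1.07 SD and -0.59 SD. Among checkpoint proteins Mad2l1 differed by -1.25 SD, the kinase gene Bub1 by -1.18 SD, Bub3 by -0.95 SD and the kinase gene Ttk (MPS1) by -0.79 SD, all with overlapping diets. Bub1, Bub3 and Spc25 turned to 0.02, 0.46 and 0.19 SD after quantile normalization.

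Centromere genes were lower in 6 of 7 members, and their median was -1.52 SD as deposited, -0.50 SD when quantile-normalized (7 of 7 lower) and -0.26 SD when median-centred. Cenpf (1427161_at), a large protein of the outer kinetochore that peaks in G2 and mitosis, deviated by 1.00, 2.86, 0.60 and -0.18 SD in control replicates 1 to 4 and -0.34, -0.91, -1.68 and -1.35 SD in collagen replicates 1 to 4. The diets did not overlap, with control replicate 4 the nearest to the collagen arrays, and the difference was -2.14 SD (adjusted p = 0.82 in limma). After quantile normalization it was -0.01 SD. Cenpa (1450842_a_at), the histone H3 variant that marks centromeres, deviated by 0.16, 1.66, 1.14 and 1.07 SD in control replicates 1 to 4 and 0.52, -1.78, -2.28 and -0.49 SD in collagen replicates 1 to 4. Collagen replicate 1 lay above control replicate 1 and the other collagen arrays below all control arrays, for a difference of -2.02 SD (adjusted p = 0.861 in limma). Cenpe, the kinesin of chromosome congression, differed by -1.77 SD and also stood below an unadjusted p of 0.05 in limma. Cenpn and Cenph, of the constitutive centromere network, differed by -1.52 SD and -1.17 SD and did not. Of the same network, Cenpi differed by -0.01 SD and Cenpk by 0.36 SD, with overlapping diets, and Cenpk was -0.17 SD after quantile normalization.

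The passenger complex, which carries Aurora B kinase to centromeres and then to the midzone, was lower in 3 of 3 members. Its median was -1.62 SD as deposited, -0.15 SD when quantile-normalized (2 of 3 lower) and -0.46 SD when median-centred (3 of 3, against 86.5% of all genes). Incenp (1439436_x_at), its scaffold, deviated by 1.69, 2.06, 0.96 and -0.83 SD in control replicates 1 to 4 and -0.95, -1.66, -0.22 and -1.05 SD in collagen replicates 1 to 4. Control replicate 4 lay within the collagen arrays, and the difference was -1.94 SD (adjusted p = 0.872 in limma), or -0.15 SD after quantile normalization. The further probe sets of Incenp differed by -2.80, -1.93, -0.59 and 1.11 SD. Cdca8 (borealin) differed by -1.62 SD. Birc5 (1424278_a_at), which encodes survivin, deviated by 1.49, 1.84, 0.58 and -1.12 SD in control replicates 1 to 4 and -0.01, -0.66, -1.17 and -0.95 SD in collagen replicates 1 to 4. Here too control replicate 4 was among the lowest arrays, and the difference of -1.39 SD missed an unadjusted p of 0.05 in limma (0.0805) and was 0.09 SD after quantile normalization. The cytokinesis regulators were lower in 3 of 3, at a median of -1.12 SD as deposited. It was -0.25 SD when quantile-normalized (2 of 3 lower) and -0.62 SD when median-centred (3 of 3). Racgap1 (1451358_a_at), the GTPase-activating part of centralspindlin, deviated by 0.95, 0.99, 2.66 and -0.17 SD in control replicates 1 to 4 and -1.82, -0.01, -1.06 and -1.54 SD in collagen replicates 1 to 4. Collagen replicate 2 was the 1 collagen array above control replicate 4, and the difference was -2.22 SD as deposited (adjusted p = 0.813 in limma) and 0.06 SD after quantile normalization. Anln (anillin), a scaffold of the contractile ring, differed by -1.12 SD. Ect2, the exchange factor that activates RhoA at the cleavage plane, differed by -0.55 SD, and by 0.25 SD without control replicate 1.

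The 7 further mitotic genes were all lower, at a median of -2.17 SD as deposited, -0.29 SD when quantile-normalized (6 of 7 lower) and -0.70 SD when median-centred (7 of 7). Ccnf (1422513_at), cyclin F, a ubiquitin ligase subunit, deviated by 0.65, 1.20, 1.16 and 1.68 SD in control replicates 1 to 4 and 0.25, -0.46, -2.82 and -1.65 SD in collagen replicates 1 to 4. The diets did not overlap, collagen replicates 3 and 4 being lowest, and the difference was -2.35 SD as deposited (adjusted p = 0.777 in limma) and 0.44 SD after quantile normalization. Lmnb1 (1423521_at), the nuclear lamina protein lamin B1, deviated by -0.39, 1.74, 1.61 and 1.75 SD in control replicates 1 to 4 and -0.25, -2.50, -0.85 and -1.09 SD in collagen replicates 1 to 4. Control replicate 1 lay among the collagen arrays, far from the other control arrays, and the difference was -2.35 SD (adjusted p = 0.777 in limma). Mki67 (1426817_at), the proliferation antigen Ki-67 that coats mitotic chromosomes, read 9.137387, 9.137274, 9.137336 and 9.137054 log2 in control replicates 1 to 4 and 9.137007, 9.137049, 9.136869 and 9.137069 in collagen replicates 1 to 4. Control replicate 4 sat within the collagen arrays and the other control arrays above them. The difference was -0.000264 ± 8.59e-05 (SE, n = 4 per diet) log2, or -2.17 SD (adjusted p = 0.813 in limma), and it was -1.42 SD when quantile-normalized and -1.81 SD when median-centred. Cks2, a small subunit of cyclin-dependent kinases, differed by -2.21 SD and was the last of the 8 members with diets that do not overlap. The securin gene Pttg1 differed by -1.18 SD, the separase gene Espl1 by -1.23 SD and cyclin A2 (Ccna2) by -0.73 SD, all with overlapping diets and unadjusted p above 0.05 in limma.

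Further probe sets read other stretches of the same transcripts on the same arrays. The members have 65 of them, on 36 genes, and 54 (83.1%) were lower on the collagen diet, against 52.2% of 16752 further probe sets of all genes. At an unadjusted p below 0.05 in limma stood 14 (21.5%), all lower, against 4.01% of all further probe sets that were lower at this p. Those furthest from 0 were of Kif22 (-5.90 SD), Ncaph (-4.03 SD) and Cenpe (-3.59 SD), which were picked out after their values were seen. A further Ccna2 probe set differed by -1.40 SD, and those of Top2a by -1.55 and -0.88 SD. Those of Smc2 were split, between -1.20 and 0.36 SD, and those of Cenpa were higher, by 0.30 and 0.71 SD.

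Other genes of the same machinery lay in both directions as deposited. Of 25 further kinetochore and centromere genes tested 15 were lower (median -0.73 SD), and 4 stood below an unadjusted p of 0.05 in limma, all lower, against 4.15% of all genes. Their median was -0.08 SD when quantile-normalized (17 lower) and -0.19 SD when median-centred (24 lower, against 86.5% of all genes). Those of the smallest p were Bub1b (BUBR1), a checkpoint kinase, at -3.55 SD, the centromere DNA-binding protein gene Cenpb at -2.38 SD and Cenpx at -1.83 SD, each with diets that do not overlap. Of 35 further spindle and cytokinesis genes 23 were lower (median -0.53 SD), and 6 stood below that p, all lower, against the same 4.15%. Their median was -0.15 SD when quantile-normalized (30 lower, against 64.9% of all genes) and -0.18 SD when median-centred (32 lower, against 86.5%). The 3 of smallest p were Hmmr, which binds hyaluronan and, inside the cell, spindle microtubules, at -2.67 SD, Rhoa, the GTPase of the contractile ring, at -3.21 SD, and Tubg1 (gamma-tubulin) at -1.94 SD. Of 18 genes of condensin II, cohesin, lamins and related factors 9 were lower and 9 higher (median 0.12 SD as deposited, -0.28 SD with 16 lower when quantile-normalized and -0.14 SD with 15 lower when median-centred), and 0 stood below an unadjusted p of 0.05 in limma. Cdca5 (sororin), which protects cohesion, differed by -1.59 SD, Cdca2 by -1.98 SD and the cohesin loader gene Nipbl by -1.08 SD. No gene of these lists passed over all genes tested, the smallest adjusted p being 0.566 in limma.

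Markers of the skin compartments gave different pictures. Basal keratinocyte markers split evenly, 5 of 10 lower, at a median of 0.05 SD as deposited, -0.29 SD when quantile-normalized (4 lower) and -0.14 SD when median-centred (8 lower), and their mean deviation ran from -0.430 to 0.542 SD on the control diet and from -0.473 to 0.557 SD on the collagen diet. Hair matrix and shaft markers stood higher in 14 of 15 genes, at a median of 1.28 SD as deposited, 0.21 SD when quantile-normalized (6 of 15 lower) and 0.78 SD when median-centred (5 of 15 lower). The 1 lower as deposited was Hoxc13, at -2.12 SD with diets that do not overlap. Of all genes 54.5% were lower as deposited, 64.9% when quantile-normalized and 86.5% when median-centred. The mean deviation of the hair markers ran from -1.21 to -0.144 SD on the control diet and from 0.241 to 1.23 SD on the collagen diet. Sebocyte markers stood lower in 7 of 8 genes, at a median of -1.5 SD as deposited, -0.37 SD when quantile-normalized (4 of 8 lower) and -0.86 SD when median-centred (8 of 8), and had mean deviations from -0.245 to 1.51 SD on the control diet and from -1.02 to -0.193 SD on the collagen diet. As deposited, leukocyte markers had a median of 0.20 SD over 11 genes, endothelial ones 0.16 SD over 10 and fibroblast ones 0.29 SD over 10, and when quantile-normalized these medians turned to -0.25, -0.06 and -0.21 SD. When median-centred they were -0.04, -0.06 and 0.07 SD. Adipocyte markers had a median of -0.18 SD over 8 genes (-0.37 SD quantile-normalized, -0.09 SD median-centred), and suprabasal keratinocyte markers one of 0.52 SD over 10 (0.44 and 0.01 SD). The part of these compartments in the mitotic result was not tested.

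**Figure D4:**
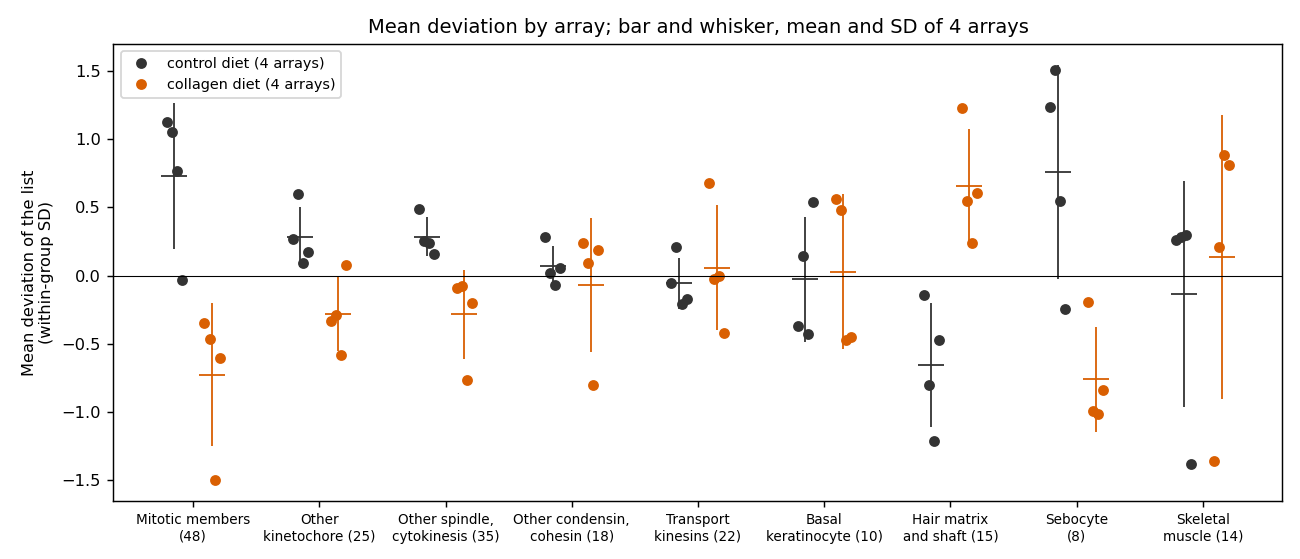
Mean deviation of each gene list in each array (points), as deposited, in within-group SD, with the mean and SD of the 4 arrays of each diet; numbers in brackets are genes tested. The members range from -0.036 to 1.13 on the control diet and from -1.498 to -0.349 on the collagen diet, hair matrix and shaft markers lie the other way round, and basal keratinocyte markers overlap between diets.

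The scaling of the arrays changed the direction of some members. After quantile normalization 12 members turned their sign: Bub1, Bub3, Spc25, Birc5, Kifc1, Tpx2, Nusap1, Spag5, Racgap1 and Ccnf then had higher means on the collagen diet and Cenpk and Ckap5 lower ones. The median within-group SD of the members was 0.000371 log2 after quantile normalization and 0.000158 log2 after median centring, against 2.81e-05 log2 as deposited. When genes in the lowest 50% by level were set aside, 12 of the 28 members left stood below an unadjusted p of 0.05 in limma, against 4.75% of all genes. In fits that left out a single array 42 of the 48 members were lower each time, with Ndc80 as near to 0 as -0.00089 SD. Of the 23, 11 kept an unadjusted p below 0.05 in limma: Cenpf, Kif20a, Kifc1, Prc1, Racgap1, Smc4, Ncapd2, Lmnb1, Cks2, Ccnf and Mki67. The shares of all genes that meet these rules were not computed, so neither count has a background. By the mean of all probe sets Cenpf and Smc4 lay above that p (0.0645 and 0.235 in limma). The further probe set of Prc1 did too (0.156 in limma).

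**Figure D5:**
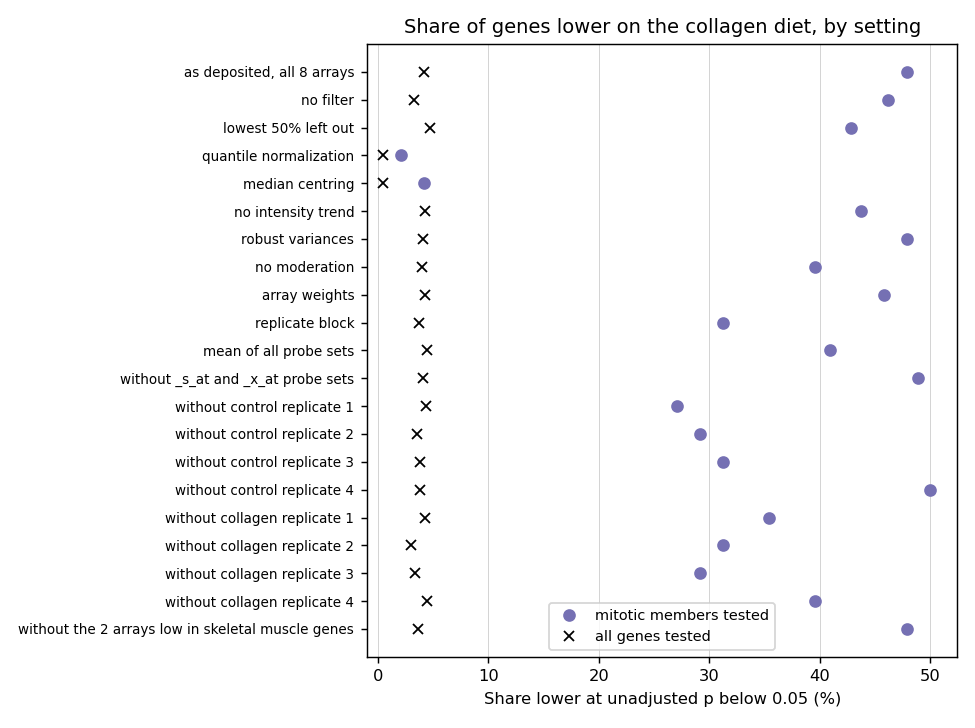
Share of genes (horizontal axis, %) that were lower on the collagen diet at an unadjusted p below 0.05 in limma, for the mitotic members tested (circles) and for all genes tested (crosses), under each setting of the analysis (rows). The members stand at 47.9% as deposited against 4.15% of all genes; under quantile normalization and median centring 1 and 2 of 48 members remain, against 0.455% and 0.448% of all genes.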

How the data were processed

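The values are log2 intensities per probe set, deposited by the authors as 1 table with a column per array. The log2 scale was judged from their range, and the submitters' processing notes name R 2.7.2. The probe summary and array scaling count as not given in the sources used here. Per the labels' protocols, 200 ng of total RNA of powdered skin was amplified and biotinylated with a 3' expression kit. Of 45101 probe sets 64 controls were set aside, and 34945 of the others name 1 gene symbol in the platform annotation, 932 several and 9160 none.

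limma 3.58.1 (R 4.3.3) tested collagen against control diet, two-sided, with a moderated variance that follows intensity (6 residual and 0.613 prior degrees of freedom), over 12735 genes, with Benjamini-Hochberg adjustment at 0.05. In simulated arrays of this comparison with 12735 genes, the fit called 20.9% of genes changed by 3 SD and 83.6% of those changed by 6 SD. It also called 6 unchanged genes. The simulated noise was independent between genes, with no shift common to an array, so these rates may not hold for the real arrays. Members, lists and tests were chosen with earlier results of these data known. In each role the 2 members with the smallest p (1 in roles of 3 members), and always Mki67, Top2a and Birc5, are given array by array. Of each further list of the machinery and of the transport kinesins the 3 genes of smallest p are named. The number of arrays limits the precision: with 4 arrays per diet the smallest two-sided p of an exact permutation test is 0.0286. No 2 arrays shared over 0.0155% of their values. Alternatives are given in the closing section.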

Additional observations from a re-analysis of the deposited data

Results flagged for a closer look

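In 3 of 106 sets of 4 arrays (52 members and the mean of the members tested, on each diet) a single array stood far from the others, which chance gives in about 1 of 20 sets. The gap to the nearest array, as a share of the set's range, was 0.935 for Lmnb1 on the control diet, where control replicate 1 deviated by -0.39 SD and the other control arrays by 1.61 to 1.75 SD. Without control replicate 1 its difference between the diets was -3.89 SD. It was 0.854 for Tpx2 on the collagen diet, where collagen replicate 3 deviated by -2.12 SD and the others by -0.78 to -0.55 SD. It was 0.837 for Ect2 on the control diet, where control replicate 1 deviated by 2.24 SD and the others by -0.63 to -0.16 SD.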

How the results depend on the processing

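The count of members lower at an unadjusted p below 0.05, 23 as deposited, was 12 with the lowest 50% of genes left out, 1 after quantile normalization, 2 after median centring, 15 with the replicate block (3.75% of all genes) and between 13 and 24 with a single array left out. Their median difference of -1.57 SD was -0.29 SD after quantile normalization, -0.41 SD after median centring and between -1.85 and -1.36 SD with a single array left out. The SD that divides these differences changed too, from a median of 2.81e-05 log2 as deposited to 0.000371 log2 (quantile-normalized) and 0.000158 log2 (median-centred). The SD units therefore differ between these settings. Why the scalings move these values was not tested further. Over all genes 0 passed as deposited, with 682 at an unadjusted p below 0.05, and 1 passed with the lowest 50% left out. With a single array left out between 0 and 1 passed. After quantile normalization the sign turned for Bub1 (0.02 SD), Bub3 (0.46), Spc25 (0.19), Cenpk (-0.17), Birc5 (0.09), Kifc1 (0.54), Tpx2 (0.01), Nusap1 (0.20), Spag5 (0.04), Ckap5 (-0.60), Racgap1 (0.06) and Ccnf (0.44). It turned for Ckap5 after median centring (-0.14 SD) and with the mean of all probe sets (-1.14 SD), and for Cenpi with array weights (0.05 SD). With a single array left out the differences that turned ranged from -0.56 to 0.38 SD (Cenpi), -0.10 to 1.58 (Cenpk), -0.25 to 1.15 (Ckap5), -0.86 to 0.25 (Ect2), -0.73 to 0.22 (Ncaph) and -0.65 to 0.49 (Smc2).

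Replicate numbers did not pair the arrays: deviations of arrays with the same number correlated over genes at 0.00448, -0.0184, 0.185 and -0.0717, and 2 of 8 arrays correlated best with their own number. With the replicate block 13 of the 23 members stayed below an unadjusted p of 0.05. By the exact permutation test 8 members had a p of 0.0286, the smallest it can give. With 4 arrays per diet this p is reached only where the diets do not overlap. These are therefore the same 8 members already counted, against 2.53% of all genes with non-overlapping diets, lower on the collagen diet. The alternative without control replicate 4 and collagen replicate 1 was chosen after seeing the data.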
